A study of Mus musculus with 18 samples.

Results

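Collagens are the proteins whose genes carry symbols of the form Col, a type number, the letter a and a chain number, and 43 of the 22609 gene symbols in the count files have such a symbol. All 43 are described here, by structural class, in heart, kidney and liver. Messenger RNA was sequenced from wild-type C57BL/6J mice fed from an age of 4 weeks, for 21 days, on a ketogenic diet (fat 90%, protein 9.7%, carbohydrate 0.3%) or kept on standard chow over that time. The 18 libraries form 6 groups of 3: ketogenic heart, kidney and liver, and chow heart, kidney and liver. The labels number the replicates as biological but do not say which organs came from the same mouse, so p-values measure the spread between these libraries. The labels give all mice as wild type and name no allele. RNA came from bulk tissue, in which fewer cells of a type and less RNA per cell cannot be told apart.

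Each collagen molecule is a triple helix of alpha chains, and every chain has its own gene. Fibrillar collagens assemble into the fibres that give tissue its tensile strength. Type IV collagens form the sheet-like network of basement membranes under epithelia and around vessels and muscle cells. FACIT collagens (fibril-associated collagens with interrupted triple helices) sit on fibre surfaces, type VI forms beaded filaments between fibres and basement membranes, and multiplexins lie in the basement membrane zone. In adult heart and kidney the fibrillar chains are known mainly from fibroblasts, and in liver from stellate cells.

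Estimated counts totalled 16135276 to 22767878 in the heart libraries, 16173996 to 19923905 in the kidney libraries and 18151967 to 23835383 in the liver libraries. Ketogenic replicates 1 and 2 were close to identical in heart and in liver. The median chi-square per gene between them was 0.669 in heart and 0.708 in liver. Counting alone gives 0.455, and the other 16 pairs within groups had 1.28 to 4.77. They were therefore summed and counted as 1 sample, which leaves 2 ketogenic samples against 3 chow samples in heart and in liver, and 3 against 3 in kidney. Chow heart replicate 3 stood apart: summed atrial myocyte markers reached 12684 CPM there, against 40.9 to 98.6 CPM in the ketogenic hearts and 65.1 and 132 CPM in the other chow hearts. Its summed fibroblast markers were at 3522 CPM, against 1967 and 2128 CPM in chow hearts 1 and 2. Its summed adipocyte markers were at 143 CPM, against 1.43 to 1.95 CPM in the ketogenic hearts and 0.655 and 0.505 CPM in the other chow hearts. Its summed mesothelium markers were at 136 CPM, against 19.2 to 52.4 CPM in the ketogenic hearts and 35.0 and 63.5 CPM in the other chow hearts. Markers of the labelled organs were high in their own libraries, with summed cardiomyocyte markers at 70348 to 73808 CPM in the ketogenic hearts and 56389 to 68090 CPM in the chow hearts, proximal tubule markers at 15965 to 21485 CPM in the ketogenic kidneys and 13627 to 16705 CPM in the chow kidneys, and hepatocyte markers at 71661 to 76539.9 CPM in the ketogenic livers and 115913 to 124924 CPM in the chow livers.

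The promoters of 3 genes that the results below turn on are shown because their chains belong to different assemblies and all 3 genes were called lower on the diet in kidney and in liver. Col1a2 encodes the second chain of type I collagen, Col3a1 the chain of type III, and Col4a1 a chain of the basement membrane network. The windows are RefSeq sequences of build GRCm38.p6 from 250 bases before to 50 bases after the annotated start, read along the gene's strand. They lie at chr6:4505368-4505667 on the plus strand (Col1a2), chr1:45311288-45311587 on the plus strand (Col3a1) and chr8:11312777-11313076 on the minus strand (Col4a1). Capitals mark CCAAT or GGGCGG or TATAAA, on either strand, with no overlap between them.
Col1a2: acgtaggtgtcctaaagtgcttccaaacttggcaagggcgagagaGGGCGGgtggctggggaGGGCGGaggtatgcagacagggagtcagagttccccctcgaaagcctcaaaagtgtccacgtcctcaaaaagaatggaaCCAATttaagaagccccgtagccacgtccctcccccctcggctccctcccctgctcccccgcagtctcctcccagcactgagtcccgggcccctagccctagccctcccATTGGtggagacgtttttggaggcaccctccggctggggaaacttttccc
Col3a1: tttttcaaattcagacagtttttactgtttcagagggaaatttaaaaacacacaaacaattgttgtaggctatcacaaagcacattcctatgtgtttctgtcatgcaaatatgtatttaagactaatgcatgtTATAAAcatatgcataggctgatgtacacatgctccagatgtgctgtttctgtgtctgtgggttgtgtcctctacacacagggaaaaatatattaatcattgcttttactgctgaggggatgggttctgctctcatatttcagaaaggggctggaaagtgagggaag
Col4a1: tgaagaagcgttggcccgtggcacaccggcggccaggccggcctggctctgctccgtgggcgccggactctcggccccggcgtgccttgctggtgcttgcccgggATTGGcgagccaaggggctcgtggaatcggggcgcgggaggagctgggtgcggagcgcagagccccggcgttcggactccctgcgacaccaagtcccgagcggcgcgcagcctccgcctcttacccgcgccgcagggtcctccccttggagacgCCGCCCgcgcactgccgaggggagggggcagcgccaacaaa
The Col1a2 window held 2 CCAAT and 2 GGGCGG boxes and had a GC content of 61.0%. In the Col3a1 window there was 1 TATAAA box and neither of the others, at a GC content of 37.7%. The Col4a1 window held 1 CCAAT and 1 GGGCGG box, at a GC content of 74.0%. Windows were found for 35 of the 43 genes, 38 windows in all. None was found for Col1a1, Col2a1, Col4a3, Col5a2, Col9a3, Col12a1, Col14a1 and Col22a1. In the shares that follow, "them" means the 38 windows. CCAAT was in 34.21% of them, against 37.41% of the 32851 windows of all genes. GGGCGG was in 60.53% of them, against 35.66% of all windows, and TATAAA in 13.16%, against 13.62%. The motif shares were not tested and were not matched for GC content. Col4a1 and Col4a2 start 21 bases apart on opposite strands in RefSeq, and their windows share 78 bases.

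Collagen messenger RNA was lower on the ketogenic diet in all 3 organs. The summed level of the 43 genes, in CPM (counts relative to the library total, scaled within an organ), was 3412, 3432 and 2792 CPM in the ketogenic hearts, against 7177, 7463 and 7576 CPM in the chow hearts. The ketogenic mean was 0.420 of the chow mean. In kidney the sum was 2479, 2473 and 3091 CPM in the ketogenic kidneys, against 6278, 5368 and 4925 CPM in the chow kidneys, a ratio of 0.485. In liver the sum was 1264, 1279 and 1452 CPM in the ketogenic livers, against 2601, 2536 and 2451 CPM in the chow livers, a ratio of 0.538. The diets did not overlap in any organ, and an exact two-sided permutation test over samples gave p = 0.1 in each, the smallest value that these group sizes allow. Without chow heart replicate 3 the heart ratio of all members was 0.424.

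Gene by gene, edgeR's quasi-likelihood test called 17 collagen genes lower and 0 higher in heart, where 32 had enough counts to be tested and 5.81% of all 13609 genes tested were called lower and 6.25% higher. In kidney 14 were lower and 0 higher of 33 tested, against 5.45% of all genes tested called lower and 3.59% called higher. In liver 16 were lower and 2 higher of 28 tested, against 17.6% of all genes tested called lower and 19.2% called higher. In either direction, 12.1% of all genes tested were called in heart, 9.05% in kidney and 36.8% in liver. Calls were made at an adjusted p (Benjamini-Hochberg over all genes tested in the organ) under 0.05. The median log2 fold change, ketogenic minus chow, of the collagen genes tested was -1.13 in heart, against -0.03 for all genes. In kidney the medians were -0.59 and 0.00, and in liver -0.71 and 0.01. All 3 ketogenic libraries lay below all 3 chow libraries for 25 collagen genes in heart, 23 in kidney and 18 in liver, against 22.7%, 16.4% and 27.9% of all genes tested in those organs. The genes not tested had too few reads, and a gene can pass that filter through the diet in which it is high.

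Of the 26 collagen genes tested in all 3 organs, 12 were lower in each of them, against 1.44% of the 12106 genes tested in all 3. These were Col1a1, Col1a2, Col3a1, Col5a1 and Col5a2 among the fibrillar chains, Col4a5 of type IV, Col16a1 of the FACITs, Col6a1 and Col6a3 of type VI, Col8a1 of the hexagonal network class, and both multiplexins, Col15a1 and Col18a1. In all, 19 collagen genes were lower in at least 1 organ, 17 were tested but lower in none, and 7 were tested in no organ. The 7 were Col2a1, Col9a1, Col9a2, Col9a3, Col10a1, Col11a1 and Col17a1, chains known mostly from cartilage and, for Col17a1, from skin; the highest count of any of them in any library was 27.

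**Figure D1:**
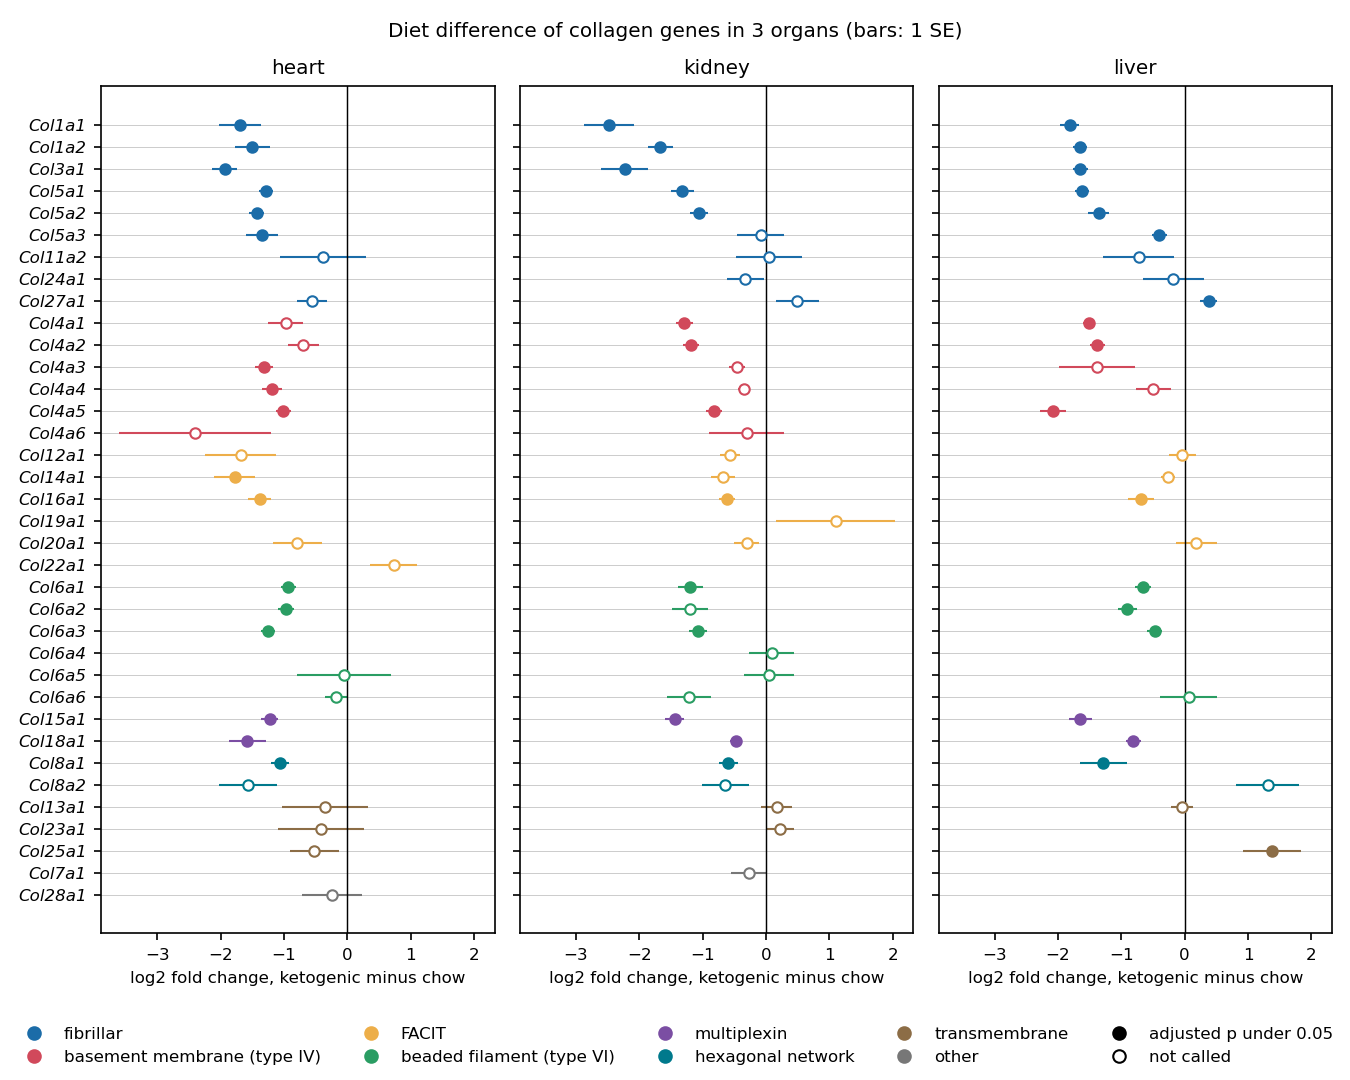
Log2 fold change, ketogenic minus chow, of each tested collagen gene in heart, kidney and liver, with bars of 1 SE; filled points passed an adjusted p of 0.05 and open points did not. Fibrillar, type IV, type VI and multiplexin genes lie mostly left of 0, and the filled points right of 0 are Col27a1 and Col25a1 in liver.

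The counts depended on single libraries. In heart 22 collagen genes were called lower without chow replicate 3. Of all heart genes 3742 were then called in either direction, against 1642 with all libraries. Of all libraries left out in heart, ketogenic replicate 3 left the fewest collagen genes called, and the fewest of all genes. The near-identical pair is then the only ketogenic sample and is assumed to vary as the chow samples do. In kidney 9 collagen genes were called lower without chow replicate 1, where 412 of all genes were called, against 1314. In liver fewer collagen genes were called in either direction without ketogenic replicate 3, which again leaves the pair alone. All genes called in liver were 3964 to 4759 over the libraries left out, against 4869. Which calls changed is given with each class.

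Some marker sums moved with the collagens, and their part in the results was not tested. Of all genes tested, 5.81% were called lower and 6.25% higher in heart, 5.45% and 3.59% in kidney, and 17.6% and 19.2% in liver. Apart from Lep and Retn of the adipocyte list in liver, no marker in the lists named here was at 0 in every library of the organ. Of 10 proliferation markers, 7 were lower in heart and 10 in kidney and in liver, with summed levels of 68.0 to 145 CPM in the ketogenic hearts and 88.9 to 193 CPM in the chow hearts, 13.3 to 45.6 CPM in the ketogenic kidneys and 141 to 213 CPM in the chow kidneys, and 7.60 to 12.9 CPM in the ketogenic livers and 120.2 to 178 CPM in the chow livers. In heart, 7 of 8 macrophage markers were lower, at 344 to 354 CPM in the ketogenic hearts and 560.4 to 639.9 CPM in the chow hearts. Macrophage sums overlapped elsewhere. In kidney they were at 131 to 161 CPM on the diet and 152 to 169 CPM on chow, with 0 of 8 called. In liver they were at 338 to 527 CPM on the diet and 340.4 to 398 CPM on chow, with 0 of 8 lower and 1 higher. Fibroblast markers were lower for 3 of 10 in heart (1877 to 2252 CPM in the ketogenic hearts and 1967 to 3522 CPM in the chow hearts) and 2 of 10 in kidney (391 to 545 CPM in the ketogenic kidneys and 521 to 627 CPM in the chow kidneys). In liver they were higher for 3 of 7 tested (41.2 to 59.0 CPM in the ketogenic livers and 32.0 to 35.6 CPM in the chow livers). Smooth muscle and pericyte markers were at 753 to 928 CPM in the ketogenic hearts and 1215 to 1430.4 CPM in the chow hearts, with 0 of 8 called, and at 296 to 329 CPM in the ketogenic kidneys and 372 to 708 CPM in the chow kidneys, with 1 of 8 lower. Their liver sums overlapped, at 52.9 to 56.7 CPM on the diet and 49.0 to 62.2 CPM on chow. Of 6 tested there, 1 was lower and 2 higher. Stellate cell markers in liver were at 401 to 416 CPM in the ketogenic livers and 393 to 440.5 CPM in the chow livers, with 1 of 8 lower and 2 higher. Both counts lie near the shares of all genes in liver. Adipocyte markers were at 60.1 to 119 CPM in the ketogenic livers and 3.13 to 5.07 CPM in the chow livers, with 1 of 2 tested higher, and at 17.5 to 251 CPM in the ketogenic kidneys and 4.86 to 78.0 CPM in the chow kidneys, with 0 of 6 called. The liver sum on the diet was nearly all Cfd, the complement factor adipsin, at 56.3 to 116 CPM in the ketogenic livers and 0.0451 to 0.0839 CPM in the chow livers, while Adipoq was at 0 to 0.105 CPM in the ketogenic livers and at 0 in the chow livers. Endothelial sums overlapped between diets in each organ, at 1415 to 1729 CPM in the ketogenic hearts and 1293 to 1784 CPM in the chow hearts, 789 to 863 CPM in the ketogenic kidneys and 813 to 904 CPM in the chow kidneys, and 298 to 307 CPM in the ketogenic livers and 296 to 322 CPM in the chow livers. Erythroid markers were at 1022 to 2354 CPM in the ketogenic hearts and 3979 to 5938 CPM in the chow hearts, with 0 of 6 called. Erythroid sums overlapped in the other organs. In kidney they were at 295 to 849.9 CPM on the diet and 614 to 1058 CPM on chow, with 0 of 5 called. In liver they were at 373 to 488 CPM on the diet and 399 to 621 CPM on chow, with 1 of 6 lower. Podocyte markers in kidney were at 504 to 605 CPM in the ketogenic kidneys and 627 to 762 CPM in the chow kidneys, with 2 of 8 lower, and hepatocyte markers were lower for 5 of 7 in liver.

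Of all genes tested, 5.81% were called lower and 6.25% higher in heart, 5.45% and 3.59% in kidney, and 17.6% and 19.2% in liver. Fibrillar chains were called lower in all 3 organs. Of its 11 genes, 6 of 8 tested were lower in heart, 5 of 9 in kidney and 6 of 9 in liver, where 1 was higher. Its summed level was 1166, 1147 and 918 CPM in the ketogenic hearts, against 2888, 2974 and 4210.4 CPM in the chow hearts, a ratio of 0.309, or 0.354 for the fibrillar sum without chow heart replicate 3. In kidney it was 413, 393 and 649 CPM in the ketogenic kidneys, against 2108, 1344 and 1302 CPM in the chow kidneys, a ratio of 0.306. In liver it was 141, 139.8 and 149 CPM in the ketogenic livers, against 381, 318 and 365 CPM in the chow livers, a ratio of 0.407. The diets did not overlap in any of the 3 organs (exact two-sided permutation p = 0.1 each, the smallest possible).

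Col1a1 and Col1a2 encode the chains of type I collagen, the main fibre of scar and interstitium. Col1a1 had 286, 266 and 194 CPM in the ketogenic hearts, against 569, 665 and 1058 CPM in the chow hearts (log2 fold change -1.70, SE 0.33, adjusted p = 0.0359). In kidney it had 67.2, 59.1 and 121 CPM in the ketogenic kidneys, against 656, 378 and 351 CPM in the chow kidneys, 5.59-fold lower on the diet (log2 fold change -2.48, SE 0.39, adjusted p = 0.0204). In liver it had 13.6, 14.6 and 12.2 CPM in the ketogenic livers, against 50.5, 37.7 and 51.7 CPM in the chow livers (log2 fold change -1.82, SE 0.15, adjusted p = 2.05e-05). No ketogenic library reached a chow library in any organ. Among kidneys, ketogenic kidney 3 and chow kidney 1 were each the highest of their group. Col1a2 had 244, 243 and 195 CPM in the ketogenic hearts, against 498, 518 and 846 CPM in the chow hearts (log2 fold change -1.50, SE 0.28, adjusted p = 0.0284). Its kidney values were 135, 106 and 150.03 CPM in the ketogenic kidneys, against 538, 356 and 349 CPM in the chow kidneys (log2 fold change -1.67, SE 0.20, adjusted p = 0.00380). Its liver values were 18.2, 16.9 and 18.5 CPM in the ketogenic livers, against 57.3, 53.7 and 59.2 CPM in the chow livers (log2 fold change -1.65, SE 0.10, adjusted p = 2.61e-06). Here too the diets were separate in each organ. Without chow heart replicate 3, the highest heart, the log2 fold changes in heart were -1.38 for Col1a1 (adjusted p = 0.0170) and -1.21 for Col1a2 (adjusted p = 1.71e-06).

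Type III collagen, the partner of type I in fine reticular fibres, has 1 kind of chain, from Col3a1. Col3a1 had 421, 420.4 and 346 CPM in the ketogenic hearts, against 1330.2, 1275 and 1812 CPM in the chow hearts, 3.83-fold lower on the diet (log2 fold change -1.94, SE 0.19, adjusted p = 0.00283). In kidney it had 86.7, 67.3 and 148 CPM in the ketogenic kidneys, against 650.1, 382 and 391.5 CPM in the chow kidneys (log2 fold change -2.23, SE 0.38, adjusted p = 0.0238). In liver it had 48.0, 47.4 and 44.97 CPM in the ketogenic livers, against 161, 128 and 148 CPM in the chow livers (log2 fold change -1.65, SE 0.12, adjusted p = 4.37e-06). The lowest chow value was above the highest ketogenic value in every organ. Per kilobase of transcript, on a scale common to all 18 libraries, Col3a1 was by group mean the first collagen gene in chow hearts and the third in ketogenic hearts, at 67.7 ± 9.42 (SD, n = 2) in ketogenic hearts and 258 ± 51.0 (SD, n = 3) in chow hearts. By library it was at 234, 224 and 317 in the chow hearts, against 222, 236 and 130.1 for Col4a1. Col4a1 was thus above it in chow heart 2, and the widest gap was in chow heart 3.

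Type V chains are known to start the assembly of type I fibres. Col5a1 had 121, 120.0 and 102 CPM in the ketogenic hearts, against 259, 285 and 271 CPM in the chow hearts (log2 fold change -1.29, SE 0.11, adjusted p = 0.00173). Col5a1 in kidney had 40.0, 31.4 and 49.8 CPM in the ketogenic kidneys, against 118, 99.1 and 87.0 CPM in the chow kidneys (log2 fold change -1.32, SE 0.18, adjusted p = 0.00640). Col5a1 in liver had 14.3, 14.4 and 16.5 CPM in the ketogenic livers, against 49.9, 45.96 and 45.6 CPM in the chow livers (log2 fold change -1.62, SE 0.11, adjusted p = 4.10e-06). The diets were separate in each organ, with narrow spread in heart. Col5a2 had 48.3, 48.7 and 44.0 CPM in the ketogenic hearts, against 118, 114 and 143 CPM in the chow hearts (log2 fold change -1.43, SE 0.12, adjusted p = 0.00175). Col5a2 in kidney had 24.1, 22.5 and 29.9 CPM in the ketogenic kidneys, against 60.6, 54.6 and 44.6 CPM in the chow kidneys (log2 fold change -1.06, SE 0.14, adjusted p = 0.00403). The diets were separate for it in heart and kidney. Its log2 fold change in liver was -1.36 (adjusted p = 1.43e-04). Col5a3 fell by 1.35 in heart on the log2 scale (adjusted p = 0.0293) and by 0.40 in liver (adjusted p = 0.0198), and its log2 fold change in kidney was -0.08 (adjusted p = 0.912).

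Col27a1, a fibrillar chain known from cartilage, was the only fibrillar gene called higher. It had 23.8, 24.7 and 29.2 CPM in the ketogenic livers, against 22.7, 17.3 and 21.4 CPM in the chow livers (log2 fold change 0.38, SE 0.14, adjusted p = 0.0460). All 3 ketogenic livers lay above the chow livers, the nearest by a small margin. In kidney it had 51.4, 97.2 and 129 CPM in the ketogenic kidneys, against 72.6, 60.9 and 63.5 CPM in the chow kidneys (log2 fold change 0.50, SE 0.34, adjusted p = 0.404), and the groups overlapped. In heart its log2 fold change was -0.56 (adjusted p = 0.172). Col24a1 and Col11a2 were not called in any organ in which they were tested.

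Several fibrillar calls ended when 1 library was left out. In heart these were Col1a1, Col1a2, Col3a1 and Col5a3 without ketogenic heart replicate 3 (adjusted p = 0.0677 to 0.218), Col5a3 without chow heart replicate 1 (adjusted p = 0.0905) and Col1a1, Col1a2 and Col5a3 without chow heart replicate 2 (adjusted p = 0.0610 to 0.0812). In kidney they were Col1a1 and Col3a1 without ketogenic kidney replicate 1 (adjusted p = 0.0754 to 0.0883), Col1a1 without ketogenic kidney replicate 2 (adjusted p = 0.0521), Col3a1 without chow kidney replicate 1 (adjusted p = 0.0579) and Col1a1 and Col3a1 without chow kidney replicate 2 (adjusted p = 0.0563 to 0.0575). In liver they were Col27a1 without ketogenic liver replicate 2 (adjusted p = 0.0567), Col27a1 without ketogenic liver replicate 3 (adjusted p = 0.280), Col27a1 without chow liver replicate 2 (adjusted p = 0.146) and Col5a3 and Col27a1 without chow liver replicate 3 (adjusted p = 0.0597 to 0.0605). Col27a1 was called higher in kidney without ketogenic kidney replicate 1 (log2 fold change 0.79, adjusted p = 0.00231), and Col5a3 was called in kidney without ketogenic kidney replicate 3 (log2 fold change -0.68, adjusted p = 0.0436). Without a filter on low counts Col1a1 (adjusted p = 0.0672) and Col5a3 (adjusted p = 0.0576) were not called in heart. In 1 model of all organs, neither Col5a3 (adjusted p = 0.371) nor Col27a1 (adjusted p = 0.366) was called in liver, nor was Col27a1 by DESeq2 (adjusted p = 0.0693).

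**Figure D2:**
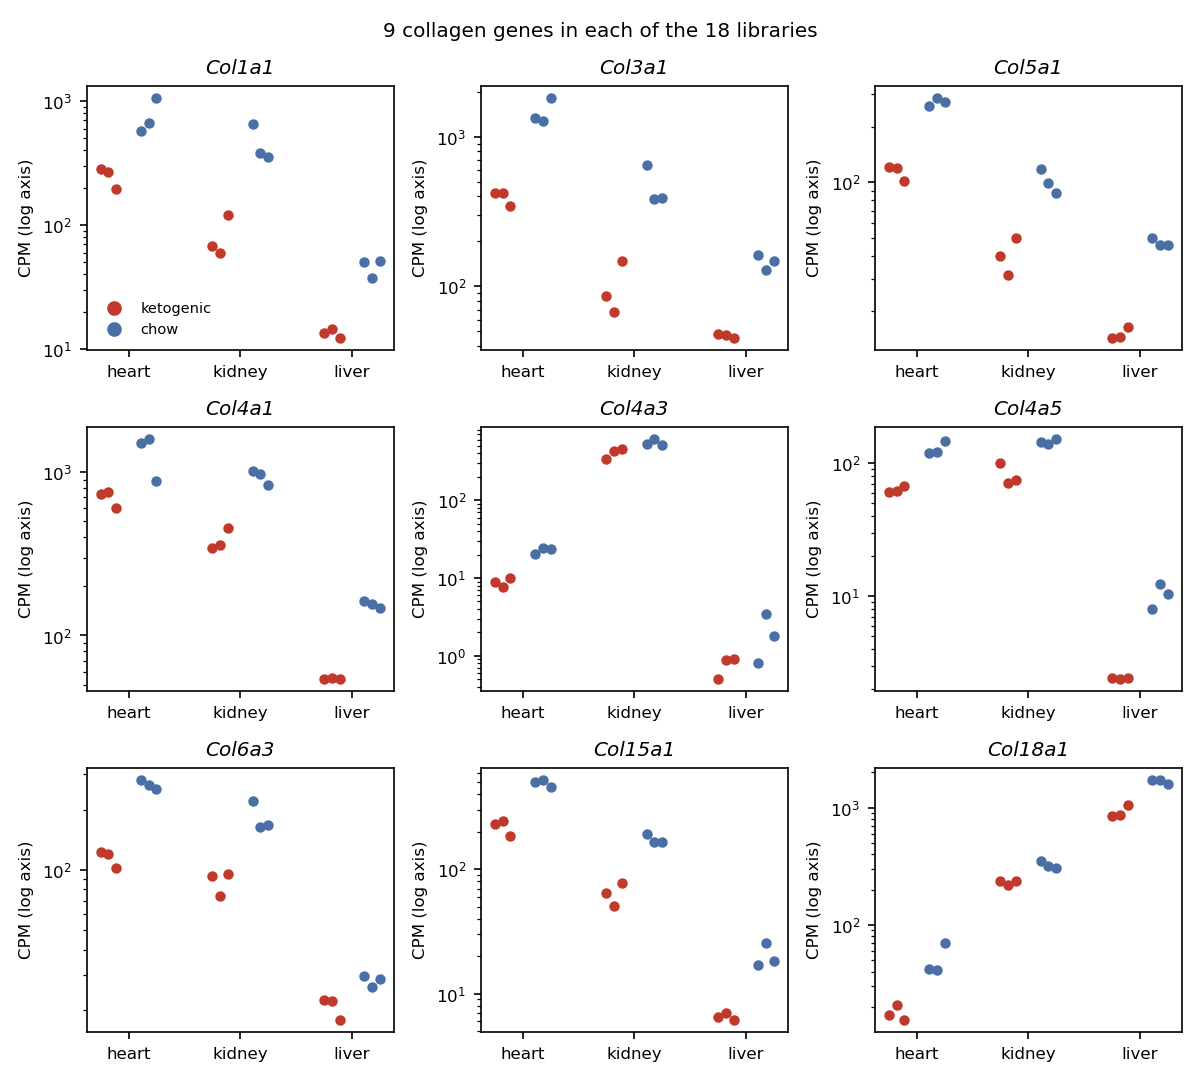
CPM of 9 collagen genes in each library (log axis, scaled within an organ), ketogenic left of chow in each organ, with 1 point per library in the order of its replicate number. For Col1a1, Col3a1, Col5a1, Col4a1, Col4a5, Col6a3, Col15a1 and Col18a1 the ketogenic points lie below the chow points in all 3 organs; for Col4a3 they overlap in liver.

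Of the 6 type IV genes, 3 of 6 tested were lower in heart, 3 of 6 in kidney and 3 of 5 in liver, and 0 were higher. Of all genes tested, 5.81% were called lower in heart, 5.45% in kidney and 17.6% in liver. The type IV genes called were Col4a3, Col4a4 and Col4a5 in heart, and Col4a1, Col4a2 and Col4a5 in kidney and in liver. The summed level was 1447, 1487 and 1237 CPM in the ketogenic hearts, against 2722, 2919 and 1779 CPM in the chow hearts (ratio 0.547; exact two-sided permutation p = 0.2, where 0.1 is the smallest possible). In kidney it was 1417, 1478 and 1708 CPM in the ketogenic kidneys, against 2850.4, 2920.1 and 2579 CPM in the chow kidneys (ratio 0.551; exact p = 0.1). In liver it was 97.9, 99.4 and 108 CPM in the ketogenic livers, against 299, 284 and 269.6 CPM in the chow livers (ratio 0.363; exact p = 0.1). The values did not overlap in any organ, and chow heart 3 was the nearest to the ketogenic hearts. Without it the heart ratio of the type IV sum was 0.479.

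Col4a1 and Col4a2 encode the chains of the network found in nearly all basement membranes, and lie head to head in the mm9 annotation of the files, at chr8:11198423-11312826 on the minus strand and chr8:11312829-11449287 on the plus strand. Col4a1 had 345, 356 and 455 CPM in the ketogenic kidneys, against 1019.7, 972 and 835 CPM in the chow kidneys (log2 fold change -1.29, SE 0.14, adjusted p = 0.00164). Its liver values were 53.8, 55.3 and 54.5 CPM in the ketogenic livers, against 164, 156 and 148 CPM in the chow livers (log2 fold change -1.51, SE 0.10, adjusted p = 3.37e-06). In heart it had 733, 756 and 605 CPM in the ketogenic hearts, against 1497, 1594 and 884 CPM in the chow hearts, which did not pass the test (log2 fold change -0.97, SE 0.28, adjusted p = 0.0802). The diets were separate in each organ, and chow heart 3 was far below chow hearts 1 and 2. Col4a2 in kidney had 275, 265 and 355 CPM in the ketogenic kidneys, against 718, 701 and 619 CPM in the chow kidneys (log2 fold change -1.19, SE 0.13, adjusted p = 0.00207). In liver Col4a2 had 39.7, 39.4 and 48.3 CPM in the ketogenic livers, against 125, 111 and 108 CPM in the chow livers (log2 fold change -1.38, SE 0.12, adjusted p = 1.42e-05). In heart Col4a2 had 624, 642 and 541 CPM in the ketogenic hearts, against 1051, 1138 and 666 CPM in the chow hearts (log2 fold change -0.70, SE 0.24, adjusted p = 0.118). Without chow heart replicate 3, the library with high atrial markers, both were called in heart: Col4a1 at -1.19 (adjusted p = 2.32e-06) and Col4a2 at -0.90 (adjusted p = 2.32e-06).

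Col4a3, Col4a4 and Col4a5 encode the chains of the mature glomerular basement membrane. Col4a3 and Col4a4 are also head to head, on chromosome 1, and Col4a5 and Col4a6 on the X chromosome. Col4a3 had 8.95, 7.66 and 9.89 CPM in the ketogenic hearts, against 20.2, 24.1 and 23.4 CPM in the chow hearts (log2 fold change -1.31, SE 0.14, adjusted p = 0.00328). Col4a4 had 16.9, 17.98 and 12.1 CPM in the ketogenic hearts, against 31.2, 36.6 and 34.1 CPM in the chow hearts (log2 fold change -1.19, SE 0.16, adjusted p = 0.00838). The ketogenic hearts lay below the chow hearts for both. In kidney, where these chains are abundant, Col4a3 had 338, 425 and 449 CPM in the ketogenic kidneys, against 535, 612 and 515 CPM in the chow kidneys (log2 fold change -0.46, SE 0.13, adjusted p = 0.0597). Kidney Col4a4 had 346, 357 and 371 CPM in the ketogenic kidneys, against 426, 489 and 449.6 CPM in the chow kidneys (log2 fold change -0.34, SE 0.09, adjusted p = 0.0504). Neither passed the test in kidney, although the libraries did not overlap. In liver, where both are at a few CPM or less, the log2 fold changes were -1.38 (adjusted p = 0.111) for Col4a3 and -0.49 (adjusted p = 0.195) for Col4a4. Liver Col4a3 had 0.499, 0.895 and 0.917 CPM in the ketogenic livers, against 0.816, 3.48 and 1.80 CPM in the chow livers, and liver Col4a4 had 0.897, 1.32 and 1.19 CPM in the ketogenic livers, against 1.59, 1.51 and 1.71 CPM in the chow livers. Those groups overlapped for Col4a3.

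Col4a5 was lower in all 3 organs. It had 61.0, 61.1 and 67.1 CPM in the ketogenic hearts, against 119, 121 and 147 CPM in the chow hearts (log2 fold change -1.01, SE 0.12, adjusted p = 0.00420). Col4a5 in kidney had 101, 71.2 and 73.9 CPM in the ketogenic kidneys, against 144, 139 and 151 CPM in the chow kidneys (log2 fold change -0.82, SE 0.13, adjusted p = 0.00741). Its liver values were 2.44, 2.37 and 2.43 CPM in the ketogenic livers, against 8.03, 12.2 and 10.4 CPM in the chow livers, 4.23-fold lower on the diet (log2 fold change -2.08, SE 0.21, adjusted p = 3.70e-05). No ketogenic library reached a chow library in any of the 3. Col4a6, its neighbour, had a log2 fold change of -2.40 in heart (SE 1.20, adjusted p = 0.277), where chow heart 3 had 25.4 CPM against 3.93 and 4.04 CPM in chow hearts 1 and 2. Without chow heart replicate 3 Col4a6 was at -0.90 and was called (adjusted p = 0.0130). Leaving out 1 library ended or made further type IV calls. In heart the calls that ended were Col4a4 and Col4a5 without ketogenic heart replicate 3 (adjusted p = 0.0682 to 0.0703). In kidney the calls gained were Col4a3, Col4a4 and Col4a6 without ketogenic kidney replicate 1 (adjusted p = 0.00325 to 0.0277), and in liver the call gained was Col4a3 without chow liver replicate 1 (adjusted p = 0.00588).

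As a share of the summed per-kilobase level of collagen genes, type IV chains took more on the diet in heart and kidney and less in liver. Type IV made up 37.3%, 38.2% and 39.3% in the ketogenic hearts, against 33.4%, 34.5% and 19.95% in the chow hearts. Fibrillar chains made up 35.98%, 35.2% and 34.6% in the ketogenic hearts, against 42.2%, 41.95% and 57.6% in the chow hearts. From the group means, type IV took 38.5% in the ketogenic hearts and 29.1% in the chow hearts, or 34.0% in the chow hearts without replicate 3, and fibrillar chains took 35.1% in the ketogenic hearts and 47.5% in the chow hearts, or 42.1% in the chow hearts without replicate 3. The heart libraries did not overlap for either class, and chow heart 3, the library with high atrial and adipocyte markers, was the farthest from the ketogenic hearts. In kidney type IV made up 52.3%, 54.9% and 49.99% in the ketogenic kidneys, against 39.7%, 48.7% and 46.7% in the chow kidneys. Fibrillar chains made up 19.4%, 18.2% and 23.8% in the ketogenic kidneys, against 38.8%, 29.3% and 30.9% in the chow kidneys. In liver type IV made up 6.99%, 6.99% and 6.66% in the ketogenic livers, against 10.3%, 10.04% and 9.86% in the chow livers. Liver fibrillar chains made up 11.03%, 10.8% and 9.92% in the ketogenic livers, against 14.9%, 12.7% and 15.3% in the chow livers. Neither class overlapped between diets in kidney or in liver. Multiplexins, almost wholly Col18a1, made up 69.1%, 69.7% and 74.1% in the ketogenic livers, against 67.5%, 69.8% and 67% in the chow livers, with overlap. These shares have no test.

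**Figure D3:**
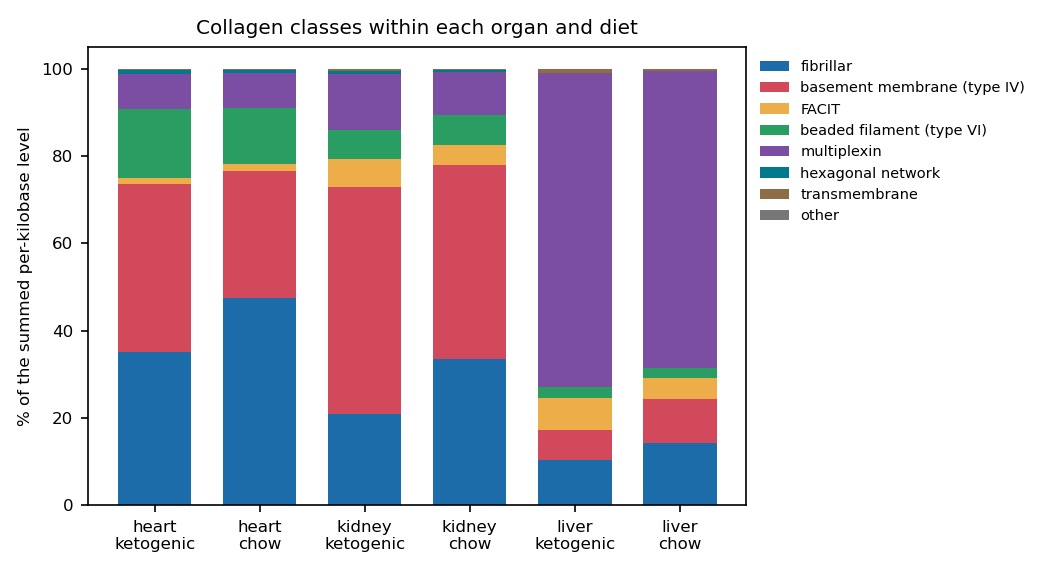
Share of the summed per-kilobase level of the 43 collagen genes taken by each class (% of the sum), as stacked bars for each organ, ketogenic left of chow. Fibrillar chains took 35.1% in ketogenic hearts and 47.5% in chow hearts, where the share was 42.1% without chow heart replicate 3, and multiplexins took most of the liver bars.

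Of the 9 FACIT genes, 2 of 5 tested were lower in heart, 1 of 5 in kidney and 1 of 4 in liver, and 0 were higher. Of all genes tested, 5.81% were called lower in heart, 5.45% in kidney and 17.6% in liver. The liver count of 1 of 4 lies near that share. The summed FACIT level was 49.1, 47.4 and 37.1 CPM in the ketogenic hearts, against 111, 107 and 183 CPM in the chow hearts (ratio 0.320). Chow heart 3 was the highest, and without it the FACIT ratio in heart was 0.392. In kidney it was 161, 173 and 194 CPM in the ketogenic kidneys, against 332, 255 and 225 CPM in the chow kidneys (ratio 0.650). In liver it was 125, 118 and 97.8 CPM in the ketogenic livers, against 132, 133 and 133 CPM in the chow livers (ratio 0.828). The diets did not overlap in any of the 3 organs, though the gap in liver was small (exact two-sided permutation p = 0.1 each, the smallest possible).

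Col14a1 encodes a chain that coats fibres and limits their diameter. It had 32.4, 33.2 and 25.2 CPM in the ketogenic hearts, against 83.8, 76.8 and 139.7 CPM in the chow hearts (log2 fold change -1.78, SE 0.33, adjusted p = 0.0350). In liver, where it was the second collagen gene per kilobase on the diet, it had 116, 108 and 89.7 CPM in the ketogenic livers, against 121, 121 and 123 CPM in the chow livers (log2 fold change -0.27, SE 0.11, adjusted p = 0.0762). Its kidney log2 fold change was -0.67 (adjusted p = 0.0742). The groups were separate in each organ. Without chow heart replicate 3, which was high, the Col14a1 log2 fold change in heart was -1.45 (adjusted p = 1.34e-06). Col16a1, a FACIT chain found near basement membranes and microfibrils, had 9.85, 7.96 and 6.31 CPM in the ketogenic hearts, against 18.02, 20.0 and 22.6 CPM in the chow hearts (log2 fold change -1.38, SE 0.18, adjusted p = 0.00666). Col16a1 in kidney had 15.7, 13.9 and 15.7 CPM in the ketogenic kidneys, against 27.2, 20.2 and 21.9 CPM in the chow kidneys (log2 fold change -0.61, SE 0.13, adjusted p = 0.0207). Col16a1 in liver had 3.39, 3.68 and 2.86 CPM in the ketogenic livers, against 4.35, 5.37 and 5.96 CPM in the chow livers (log2 fold change -0.69, SE 0.21, adjusted p = 0.0237). The diets were separate for Col16a1 in each organ. Col12a1, a relative of Col14a1, was not called in any organ, with log2 fold changes of -1.68 (adjusted p = 0.116) in heart, -0.56 (adjusted p = 0.0660) in kidney and -0.03 (adjusted p = 0.918) in liver. Col19a1, Col20a1 and Col22a1 were not called in any organ in which they were tested.

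Leaving out 1 library changed FACIT calls. In heart the calls that ended were Col14a1 and Col16a1 without ketogenic heart replicate 3 (adjusted p = 0.0753 to 0.221), Col14a1 without chow heart replicate 1 (adjusted p = 0.0846) and Col14a1 without chow heart replicate 2 (adjusted p = 0.0522), and Col14a1 was also not called without a filter on low counts (adjusted p = 0.0739). The call gained was Col12a1 without chow heart replicate 3 (adjusted p = 0.00286), at a log2 fold change of -1.03. In kidney the calls that ended were Col16a1 without ketogenic kidney replicate 2 (adjusted p = 0.0838), Col16a1 without ketogenic kidney replicate 3 (adjusted p = 0.0544), Col16a1 without chow kidney replicate 1 (adjusted p = 0.0797) and Col16a1 without chow kidney replicate 3 (adjusted p = 0.0638), and the call gained was Col12a1 without ketogenic kidney replicate 1 (adjusted p = 2.95e-04). In liver the calls that ended were Col16a1 without ketogenic liver replicate 3 (adjusted p = 0.115), Col16a1 without chow liver replicate 2 (adjusted p = 0.0566) and Col16a1 without chow liver replicate 3 (adjusted p = 0.0758), and the call gained was Col14a1 without ketogenic liver replicate 1 (adjusted p = 0.0433).

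Type VI filaments are built from Col6a1, Col6a2 and another chain, usually from Col6a3. Of all genes tested, 5.81% were called lower in heart, 5.45% in kidney and 17.6% in liver. In heart, 3 of 5 type VI genes tested were lower, in kidney 2 of 6, and in liver 3 of 4, and 0 were higher. The summed level was 467, 453 and 366 CPM in the ketogenic hearts, against 851, 829 and 809.8 CPM in the chow hearts. In kidney it was 161, 134 and 204 CPM in the ketogenic kidneys, against 417, 339 and 322 CPM in the chow kidneys. In liver it was 37.9, 41.2 and 32.8 CPM in the ketogenic livers, against 55.2, 52.4 and 57.6 CPM in the chow livers. The ratios were 0.498, 0.464 and 0.657 in heart, kidney and liver, with no overlap (exact two-sided permutation p = 0.1 each, the smallest possible).

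Col6a1 had 152, 147 and 117 CPM in the ketogenic hearts, against 260.3, 255 and 249.9 CPM in the chow hearts (log2 fold change -0.93, SE 0.12, adjusted p = 0.00572). Col6a2 had 161, 159 and 125 CPM in the ketogenic hearts, against 285, 282 and 271 CPM in the chow hearts (log2 fold change -0.97, SE 0.12, adjusted p = 0.00558). Col6a3 had 123, 119.9 and 102 CPM in the ketogenic hearts, against 281, 265 and 255 CPM in the chow hearts (log2 fold change -1.25, SE 0.11, adjusted p = 0.00181). In heart the diets were separate for each of the 3. In kidney Col6a1 had 38.9, 30.2 and 53.7 CPM in the ketogenic kidneys, against 105, 90.2 and 86.8 CPM in the chow kidneys (log2 fold change -1.19, SE 0.20, adjusted p = 0.0157). Kidney Col6a2 had 23.5, 19.7 and 40.7 CPM in the ketogenic kidneys, against 72.4, 66.0 and 54.5 CPM in the chow kidneys (log2 fold change -1.20, SE 0.28, adjusted p = 0.0571). Kidney Col6a3 had 93.0, 74.3 and 95.0 CPM in the ketogenic kidneys, against 220.2, 165 and 168 CPM in the chow kidneys (log2 fold change -1.07, SE 0.14, adjusted p = 0.00363). The kidney groups did not overlap for any of them, and Col6a2 did not pass the test. In liver Col6a1 had 8.77, 11.8 and 9.44 CPM in the ketogenic livers, against 14.6, 15.6 and 16.6 CPM in the chow livers (log2 fold change -0.66, SE 0.12, adjusted p = 0.00185). Liver Col6a2 had 6.03, 6.05 and 4.96 CPM in the ketogenic livers, against 9.84, 10.1 and 11.3 CPM in the chow livers (log2 fold change -0.90, SE 0.15, adjusted p = 0.00107). Liver Col6a3 had 22.5, 22.2 and 17.7 CPM in the ketogenic livers, against 29.6, 26.0 and 28.7 CPM in the chow livers (log2 fold change -0.47, SE 0.12, adjusted p = 0.0118). All 3 were called lower in liver. Col6a4, Col6a5 and Col6a6 were not called in any organ in which they were tested; in kidney the Col6a6 log2 fold change was -1.22 (adjusted p = 0.0775).

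Among type VI calls, those that ended in heart were Col6a1 and Col6a2 without ketogenic heart replicate 3 (adjusted p = 0.0834 to 0.0852). In kidney they were Col6a1 without ketogenic kidney replicate 1 (adjusted p = 0.0569), Col6a1 without chow kidney replicate 1 (adjusted p = 0.0737) and Col6a1 without chow kidney replicate 2 (adjusted p = 0.0527), and in liver Col6a3 without ketogenic liver replicate 3 (adjusted p = 0.0857). The kidney calls gained were Col6a2 and Col6a6 without ketogenic kidney replicate 3 (adjusted p = 0.00247 to 0.0349).

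Both multiplexin genes were lower in all 3 organs. Col15a1, a chain that anchors basement membranes of muscle and small vessels, had 233, 244 and 185 CPM in the ketogenic hearts, against 505, 523 and 459 CPM in the chow hearts (log2 fold change -1.23, SE 0.14, adjusted p = 0.00384). In kidney Col15a1 had 65.0, 50.5 and 77.1 CPM in the ketogenic kidneys, against 192, 165 and 165 CPM in the chow kidneys (log2 fold change -1.44, SE 0.15, adjusted p = 0.00212). In liver Col15a1 had 6.48, 6.95 and 6.09 CPM in the ketogenic livers, against 16.96, 25.3 and 18.2 CPM in the chow livers (log2 fold change -1.65, SE 0.19, adjusted p = 1.32e-04). The diets were separate in each organ. Col18a1 encodes the precursor of endostatin and is known to be made by hepatocytes. It had 17.2, 20.8 and 15.4 CPM in the ketogenic hearts, against 42.3, 41.5 and 70.6 CPM in the chow hearts (log2 fold change -1.58, SE 0.29, adjusted p = 0.0335). Col18a1 in kidney had 238, 220.3 and 237 CPM in the ketogenic kidneys, against 347, 315 and 304 CPM in the chow kidneys (log2 fold change -0.47, SE 0.09, adjusted p = 0.0134). Col18a1 in liver had 848, 867 and 1051 CPM in the ketogenic livers, against 1709, 1715 and 1599.5 CPM in the chow livers (log2 fold change -0.81, SE 0.12, adjusted p = 5.08e-04). Per kilobase it was the first collagen gene of the liver on both diets, at 224 ± 31.0 (SD, n = 2) in ketogenic livers and 400.1 ± 15.9 (SD, n = 3) in chow livers. Calls that ended without 1 library in heart were Col15a1 and Col18a1 without ketogenic heart replicate 3 (adjusted p = 0.0703 to 0.224), Col18a1 without chow heart replicate 1 (adjusted p = 0.0649) and Col18a1 without chow heart replicate 2 (adjusted p = 0.0557), and in kidney Col18a1 without ketogenic kidney replicate 2 (adjusted p = 0.0690) and Col18a1 without chow kidney replicate 1 (adjusted p = 0.0716). Col18a1 was also not called in heart without a filter on low counts (adjusted p = 0.0656), nor in kidney in 1 model of all organs (adjusted p = 0.112).

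Among the hexagonal network chains, Col8a1, known from vessel walls, was lower in all 3 organs. It had 24.1, 25.1 and 26.5 CPM in the ketogenic hearts, against 51.5, 63.2 and 46.01 CPM in the chow hearts (log2 fold change -1.07, SE 0.14, adjusted p = 0.00755). Col8a1 in kidney had 10.1, 12.2 and 11.3 CPM in the ketogenic kidneys, against 18.9, 18.1 and 13.7 CPM in the chow kidneys (log2 fold change -0.59, SE 0.14, adjusted p = 0.0363). Col8a1 in liver had 0.698, 0.895 and 0.431 CPM in the ketogenic livers, against 1.86, 1.22 and 1.71 CPM in the chow livers (log2 fold change -1.28, SE 0.37, adjusted p = 0.0182). Col8a2, its partner chain, was not called, with log2 fold changes of -1.57 (adjusted p = 0.0695) in heart, -0.64 (adjusted p = 0.297) in kidney and 1.31 (adjusted p = 0.0605) in liver. Liver Col8a2 rested on few reads, 17, 7 and 12 counts in the ketogenic livers and 9, 4 and 4 in the chow livers, and those overlapped. Calls that ended in this class were Col8a1 without ketogenic heart replicate 3 (adjusted p = 0.107), Col8a1 without ketogenic kidney replicate 2 (adjusted p = 0.0770), Col8a1 without ketogenic kidney replicate 3 (adjusted p = 0.0985), Col8a1 without chow kidney replicate 1 (adjusted p = 0.154) and Col8a1 without chow kidney replicate 2 (adjusted p = 0.0997), and Col8a1 without ketogenic liver replicate 3 (adjusted p = 0.0946). Calls gained were Col8a2 without chow heart replicate 3 (adjusted p = 0.0355), Col8a2 without ketogenic liver replicate 2 (adjusted p = 0.0370) and Col8a2 without chow liver replicate 1 (adjusted p = 0.0252).

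None of the 4 transmembrane chains was called lower in any organ in which it was tested. Of them 3 were tested in heart, 2 in kidney and 2 in liver. All 3 tested in heart had fitted values below 0, and none was called. Without chow heart replicate 3 the log2 fold changes in heart were 0.61 for Col13a1 and 0.54 for Col23a1. Heart Col25a1 kept its sign whichever library was left out. Col25a1, a transmembrane chain known from neurons, was called higher in liver (log2 fold change 1.39, SE 0.46, adjusted p = 0.0352). It had 15, 10 and 11 counts in the ketogenic livers, against 6, 6 and 4 in the chow livers, or 0.748, 0.526 and 0.593 CPM in the ketogenic livers, against 0.272, 0.252 and 0.180 CPM in the chow livers. The groups did not overlap, at a very low level. The call ended without any 1 of ketogenic liver replicates 1 and 3 and chow liver replicates 2 and 3 (adjusted p = 0.0674 to 0.0891 for Col25a1), by DESeq2 (adjusted p = 0.137) and without a filter on low counts (adjusted p = 0.0564). Col13a1 and Col23a1 were not called in any organ in which they were tested, nor were Col7a1, the anchoring fibril chain of skin, in kidney, and Col28a1 in heart.

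**Figure D4:**
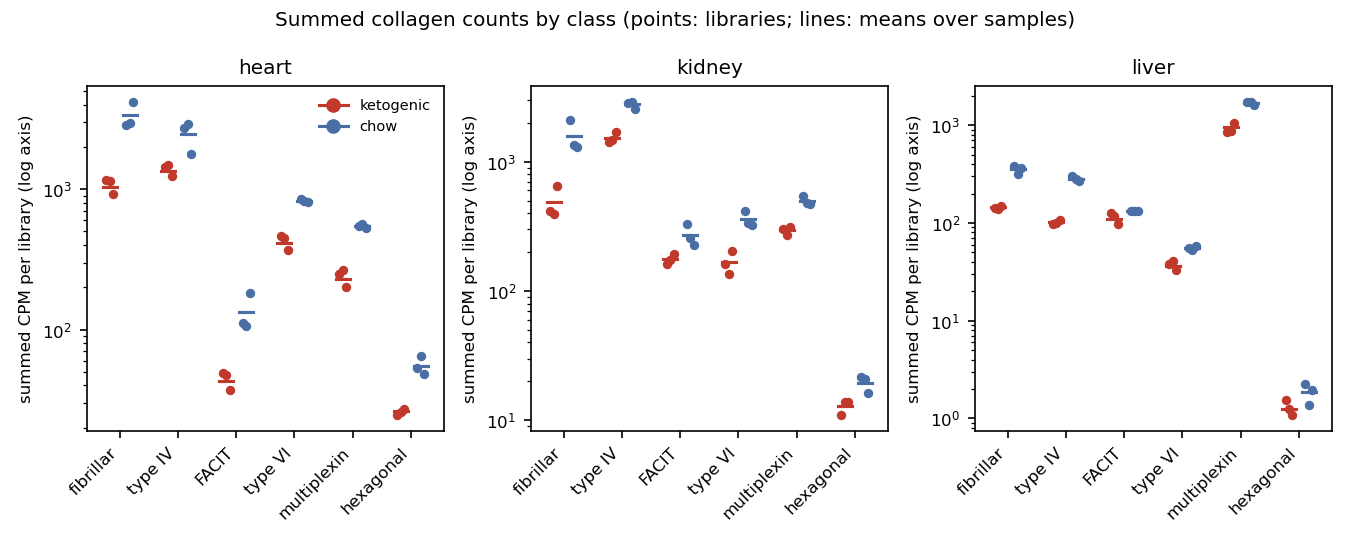
Summed CPM of the genes of 6 collagen classes in each library (points, log axis) and the mean over samples (lines), ketogenic left of chow in heart, kidney and liver. The fibrillar points of the 2 diets are separated in every organ, at ratios of 0.309, 0.306 and 0.407, and the hexagonal network class overlaps in liver.

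Chains of 1 molecule come from separate genes, so their RNA was compared as the ratio of per-kilobase levels within a library. A ratio of 1 means equal RNA levels per kilobase and does not stand for the make-up of the molecule. Col1a1 to Col1a2 was 0.546, 0.608 and 0.883 in the ketogenic kidneys, against 1.33, 1.16 and 1.10 in the chow kidneys. The kidney values did not overlap, and the ketogenic kidneys were below 1. In heart the ratio was 1.28, 1.20 and 1.09 in the ketogenic hearts, against 1.25, 1.40 and 1.37 in the chow hearts, and in liver it was 0.814, 0.948 and 0.721 in the ketogenic livers, against 0.965, 0.767 and 0.955 in the chow livers; both overlapped. Col4a1 to Col4a2 was 1.14, 1.14 and 1.09 in the ketogenic hearts, against 1.38, 1.36 and 1.29 in the chow hearts. It was 1.22, 1.30 and 1.24 in the ketogenic kidneys, against 1.38, 1.35 and 1.31 in the chow kidneys, and 1.32, 1.36 and 1.10 in the ketogenic livers, against 1.27, 1.37 and 1.33 in the chow livers. The ratio was lower in every ketogenic heart and kidney than in any chow library of that organ, and overlapped in liver. Col4a3 to Col4a4 was 0.886, 1.08 and 1.10 in the ketogenic kidneys, against 1.14, 1.14 and 1.04 in the chow kidneys, and 0.482, 0.387 and 0.741 in the ketogenic hearts, against 0.585, 0.597 and 0.621 in the chow hearts; these overlapped. Col6a1 to Col6a2 was 0.886, 0.864 and 0.878 in the ketogenic hearts, against 0.858, 0.847 and 0.865 in the chow hearts, and 1.55, 1.44 and 1.24 in the ketogenic kidneys, against 1.36, 1.28 and 1.49 in the chow kidneys, with overlap. In liver it was 1.36, 1.83 and 1.78 in the ketogenic livers, against 1.40, 1.45 and 1.38 in the chow livers, also with overlap. These ratios have no test.

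**Figure D5:**
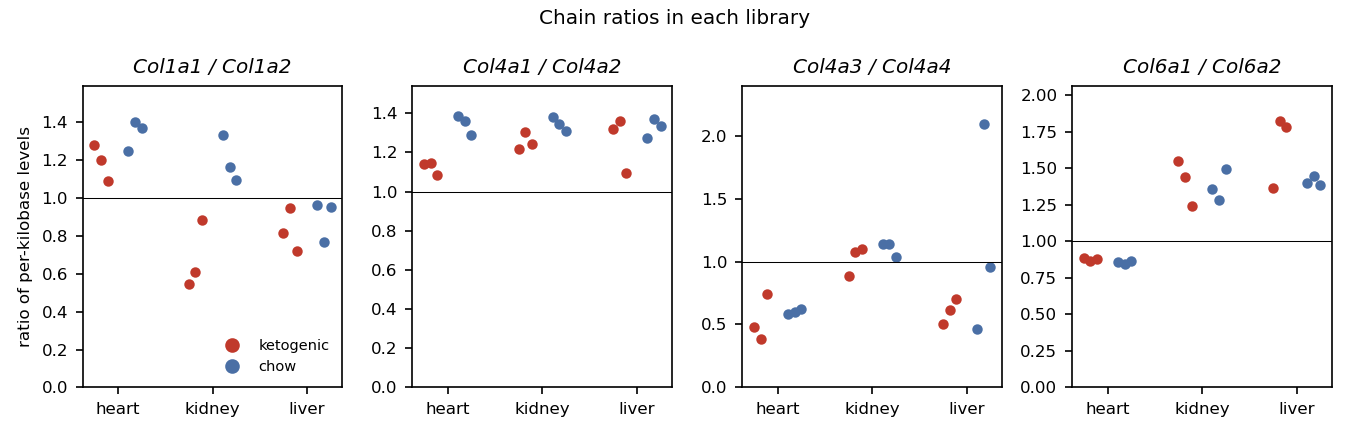
Ratio of per-kilobase levels of paired collagen chains in each library (1 point per library), ketogenic left of chow, with a line at 1 (equal RNA levels). In kidney Col1a1 to Col1a2 lies below 1 in all ketogenic libraries and above 1 in all chow libraries.

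Whether the diet difference itself differed between organs was tested in 1 model of 16 samples. For heart minus kidney, 2 of 38 collagen genes tested were called, against 2.50% of all 15695 genes tested. Col4a4 differed by -0.82 (SE 0.16, adjusted p = 0.0167), with a log2 fold change of -1.15 in heart and -0.33 in kidney. Col18a1 differed by -1.09 (SE 0.26, adjusted p = 0.0388), with -1.55 in heart and -0.45 in kidney. Both fell more in heart. Without ketogenic heart replicate 3 neither was called (adjusted p = 0.0865 for Col4a4 and 0.200 for Col18a1), and Col18a1 was also lost without any one of ketogenic heart replicate 1, ketogenic kidney replicates 2 and 3, and the 3 chow kidney replicates (adjusted p = 0.0601 to 0.0934).

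For heart minus liver, 4 of 38 were called, against 23.5% of all genes tested. Col6a3 differed by -0.74 (SE 0.21, adjusted p = 0.0207) and Col14a1 by -1.47 (SE 0.36, adjusted p = 0.00950), both with the larger fall in heart. Col8a2 differed by -2.85 (SE 0.72, adjusted p = 0.0107), with -1.54 in heart and 1.31 in liver. Col4a5 differed by 1.11 (SE 0.26, adjusted p = 0.00658) for heart minus liver and by 1.28 (SE 0.25, adjusted p = 0.00253) for kidney minus liver, the only call of 38 there, against 21.8% of all genes tested. Its fall was larger in liver than in either other organ. Col6a3 was not called without ketogenic heart replicate 3 (adjusted p = 0.0982). For the other collagen genes a difference between organs was not shown, and they include every type I, III and V chain. At an unadjusted p under 0.05 there were 10 of 38 for heart minus kidney, 11 for heart minus liver and 4 for kidney minus liver, against 16.5%, 35.8% and 34.3% of all genes tested.

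Genes of collagen production are set beside the same shares of all genes. Those called lower were 5.81% in heart, 5.45% in kidney and 17.6% in liver. Those called higher were 6.25%, 3.59% and 19.2% in that order. Some counts lie near these shares, such as 1 of 14 type IV partners higher in heart and 1 of 6 proteoglycans lower in liver. No list was tested as a set. Of the list for modification and folding inside the cell, 4 of 16 tested were lower and 1 higher in heart, 6 of 16 and 1 in kidney, and 6 of 16 and 0 in liver, at median log2 fold changes of -0.28 in heart, -0.26 in kidney and -0.17 in liver. Sparc, a collagen-binding chaperone-like matrix protein, fell on the diet, with log2 fold changes of -1.42 (adjusted p = 0.00179) in heart, -1.52 (adjusted p = 0.00315) in kidney and -1.26 (adjusted p = 9.11e-06) in liver. Serpinh1, the collagen-specific chaperone Hsp47, had log2 fold changes of -0.81 (adjusted p = 0.00700), -1.11 (adjusted p = 0.00150) and -0.71 (adjusted p = 0.00164) in the same order. Fkbp10, a prolyl isomerase of the same pathway, was higher in heart at 0.67 (adjusted p = 0.0113) and lower in kidney at -0.99 (adjusted p = 0.0346). P4ha2, a prolyl hydroxylase chain, was the gene called higher in kidney, at 0.42 (adjusted p = 0.0388).

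Of the list for processing and crosslinking outside the cell, 5 of 14 were lower in heart, 5 of 13 in kidney and 5 of 12 in liver, and 0 were higher. The medians were -0.71 in heart, -0.67 in kidney and -0.62 in liver. Loxl2, a lysyl oxidase that crosslinks chains, had log2 fold changes of -1.16 (adjusted p = 0.0349) in heart, -1.26 (adjusted p = 0.00227) in kidney and -1.20 (adjusted p = 5.67e-05) in liver. Bmp1, which cleaves the C-terminal propeptide, had log2 fold changes of -0.81 (adjusted p = 0.00501), -0.67 (adjusted p = 0.0207) and -0.48 (adjusted p = 0.00449) in heart, kidney and liver. Among collagenases and their inhibitors, 3 of 13 were lower and 1 higher in heart, 4 of 10 and 0 in kidney, and 2 of 7 and 0 in liver, at medians of -0.56 in heart, -0.89 in kidney and -0.42 in liver. Mmp14, a membrane collagenase, had log2 fold changes of -1.08 (adjusted p = 0.00442), -0.88 (adjusted p = 0.00197) and -0.91 (adjusted p = 9.96e-05) in that order, and the inhibitor gene Timp4 was higher in heart at 1.46 (adjusted p = 0.0210).

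Of the basement membrane partners of type IV, 2 of 14 were lower and 1 higher in heart, 5 of 15 and 0 in kidney, and 7 of 15 and 2 in liver, at medians of -0.38 in heart, -0.25 in kidney and -0.25 in liver. Nid2, which links laminin to type IV collagen, had log2 fold changes of -0.98 (adjusted p = 0.00952) in heart, -1.04 (adjusted p = 0.00126) in kidney and -1.80 (adjusted p = 1.79e-05) in liver. The genes called higher were laminin chains: Lama5 in heart at 0.71 (adjusted p = 0.0123), and Lamb3 at 2.56 (adjusted p = 3.42e-06) and Lamc3 at 0.74 (adjusted p = 0.0407) in liver. Of the fibril-associated proteoglycans, 2 of 7 were lower and 0 higher in heart, 1 of 7 and 0 in kidney, and 1 of 6 and 3 in liver, at medians of -0.57 in heart, -0.46 in kidney and 0.14 in liver. Liver Fmod, which binds type I fibres, was higher at 1.14 (adjusted p = 0.00222). Of the collagen receptors, 1 of 9 was lower in heart and in kidney, Mrc2 each time, and 0 of 7 in liver, at medians of -0.60 in heart, -0.06 in kidney and 0.10 in liver. No receptor gene was higher.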

How the data were processed

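RNA from heart, kidney and liver was sequenced from stranded mRNA libraries, with an RNA integrity number above 4, per the labels' protocols. Per the submitters' processing notes reads were handled with bcl2fastq and SAMtools, HISAT2 2.1.0 and featureCounts 1.5.0. Per the file headers, the authors counted read pairs on exons of the UCSC annotation of build mm9, by strand, at a mapping quality of at least 2, giving reads that fit several places or genes fractions of a count. The deposited values are therefore estimated counts, and they were rounded to whole numbers here.

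Within each organ, genes were filtered with filterByExpr, scaled by TMM and tested with the quasi-likelihood test of edgeR 4.0.16 (R 4.3.3), with Benjamini-Hochberg adjustment over all genes tested. In heart and in liver, the near-identical ketogenic libraries 1 and 2 were summed. CPM uses TMM-scaled totals. Per-kilobase levels divide CPM, scaled over all 18 libraries, by the transcript length in the files. Differences between organs came from 1 model of 6 groups. DESeq2 1.42.0 and other filters, scalings and sample sets were alternatives. The tests were also run on simulated counts with known fold changes and the fitted spread, and the outcome is not reported here. Only genes well above the lowest levels were changed in them, so very low genes were not covered. The collagen genes, classes and lists were chosen with earlier results of these data known. Named collagen genes were, per organ and class, up to 3 called genes of smallest adjusted p and every gene called higher. The paired chains and genes called in a difference between organs were also named. For the pathway lists some called genes were picked as examples, and other called genes are counted but not named, such as Mmp2 and Pcolce. A further pathway list is not reported here.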

Additional observations from a re-analysis of the deposited data

Results flagged for a closer look

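The collagen genes whose diet difference itself differed between organs, by edgeR's quasi-likelihood test of the difference in 1 model of 16 samples, were as follows. For heart minus kidney the differences on the log2 scale were -0.82 (SE 0.16, adjusted p = 0.0167) for Col4a4 and -1.09 (SE 0.26, adjusted p = 0.0388) for Col18a1. For heart minus liver they were -0.74 (SE 0.21, adjusted p = 0.0207) for Col6a3, -1.47 (SE 0.36, adjusted p = 0.00950) for Col14a1, -2.85 (SE 0.72, adjusted p = 0.0107) for Col8a2 and 1.11 (SE 0.26, adjusted p = 0.00658) for Col4a5. For kidney minus liver the difference was 1.28 (SE 0.25, adjusted p = 0.00253) for Col4a5. Col8a2 was the only one with opposite fitted signs, and its liver counts were low.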

How the results depend on the processing

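Of 49 calls of collagen genes against diet, 24 held under every alternative tried and 25 were lost under at least 1, and none changed sign. In heart most calls were lost under at least 1 alternative, while most held in kidney and in liver. In heart and liver the alternatives include a fit with the near-identical pair as the only ketogenic sample. Counting all 6 libraries as separate samples gave 3317 genes called in heart, against 1642, and 21 heart collagen genes lower, against 12.2% of all genes called lower. DESeq2 called 0 liver collagen genes higher, and no filter, a filter of 1 CPM in 3 libraries and 1 model of all organs called 1 each. With all 18 libraries as separate samples, 842 genes were called for heart minus kidney, 9 collagen genes for heart minus liver and 3 for kidney minus liver. The main model called 4 and 1 of 38 collagen genes for heart minus liver and kidney minus liver, against 23.5% and 21.8% of all genes tested. Those shares belong to the main model of 16 samples, and the shares of the alternatives are not given here. No excess of collagen genes is read from these counts between organs. Scaling by total count alone gave 9 and 3 for those last contrasts, and moved the median log2 fold change of all heart genes to -0.17.

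Deviations of same-numbered libraries within an organ had correlations of 0.01 to 0.10 in heart, -0.18 to 0.05 in kidney and 0.00 to 0.11 in liver. With so few libraries, and within organs only, these values cannot show whether the numbers pair samples. With the replicate number as a block, 810 genes were called in kidney, and Col1a1 (adjusted p = 0.0549) and Col8a1 (adjusted p = 0.0769) were not. The block with all 6 libraries as separate samples gave 2732 genes in heart. With all 18 libraries as separate samples, the block gave 610 genes for heart minus kidney, 9 collagen genes for heart minus liver and 4 for kidney minus liver, and Col18a1 was not called for heart minus kidney. The shares of all genes in the main model of 16 samples were 23.5% for heart minus liver and 21.8% for kidney minus liver. The shares in the fits of all 18 libraries are not given here, and no excess is read from their collagen counts.

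Leaving out 1 library gave 4 to 22 collagen genes lower in heart, 9 to 16 in kidney and 13 to 17 in liver. Those higher were 0 to 1 in kidney and 0 to 3 in liver, and those called either way 9 to 17 in kidney and 13 to 20 in liver. All genes called were 89 to 3742 in heart, 412 to 3402 in kidney and 3964 to 4759 in liver. For differences between organs, collagen genes called were 0 to 3 for heart minus kidney, 3 to 7 for heart minus liver and 1 to 3 for kidney minus liver. All genes called there were 131 to 674, 2898 to 3694 and 2475 to 3899. The fitted sign of 6 collagen genes in heart, 5 in kidney and 3 in liver, none of them called, changed when some library was left out. In heart these were Col6a5, Col6a6, Col11a2, Col13a1, Col23a1 and Col28a1, and all but Col6a5 and Col6a6 were above 0 without chow replicate 3 (Col13a1 at 0.61, Col23a1 at 0.54 and Col11a2 at 0.18). In liver they were Col6a6, Col12a1 and Col13a1. In kidney they were Col4a6, Col5a3, Col6a4, Col6a5 and Col11a2. Kidney Col5a3 ran between -0.68 and 0.18 over libraries left out and was at 0.18 without ketogenic replicate 1 and 0.10 without ketogenic replicate 2. Kidney Col4a6 ran between -1.25 and 0.039 and was at 0.039 without ketogenic replicate 2. The cause was not tested. Liver Col25a1 and Col8a2 had at most 15 and 17 counts in a library, which limits their precision.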
